A study of Sus scrofa with 16 samples.

Results

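The genes described here are those whose platform symbol starts with NDUF, the nuclear genes for subunits and assembly factors of respiratory complex I, in the left ventricle of young pigs. There were 36 such genes among the 6765 named on the array, read by 45 of 23935 tested probe sets, which are sets of short DNA probes for a transcript. Each gene is represented by its brightest probe set, the one with the highest mean over all animals, and the other probe sets of a gene are set against it. A further 2 probe sets that the annotation assigns to both NDUFAF7 and PRKD3 were left out. The members comprised 5 core catalytic subunits, 27 accessory subunits, 3 assembly factors and NDUFA4, which keeps the family name but is now counted as a subunit of cytochrome c oxidase.

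Both groups were Yorkshire by Landrace pigs, 2 to 3 months old, of unmodified genotype as far as the labels go, each with 4 females and 4 castrated males. The 8 exercise-trained animals (exercised) and the 8 sedentary animals gave tissue 4 to 5 weeks into the protocol, and each animal had its own biotin-labelled Affymetrix porcine array. The kind and amount of exercise are not given in the sources used here. Castrated males limit the comparison of the sexes, since they do not stand for intact males.

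Complex I (NADH dehydrogenase) is the entry point of most electrons into the mitochondrial respiratory chain. It takes electrons from NADH, passes them along iron-sulphur clusters in its matrix arm to ubiquinone, and pumps protons through its membrane arm. Core subunits carry out the chemistry, and the many accessory subunits surround and stabilise them. Assembly factors help to build the complex and are not part of the finished enzyme. Heart muscle is rich in mitochondria, and these transcripts are abundant there.

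The arrays differed in quality measures that the labels do not name. Signals of 36 control probe sets for bacterial poly-A transcripts, added before labelling, ran from 7.80 to 8.96 log2 on 11 arrays and from 6.17 to 6.75 on the other 5. The first set held 6 exercised and 5 sedentary animals, and the second held 2 exercised and 3 sedentary animals with 0 exercised females. They are called the arrays with high and with low poly-A signal below. The gap between 3' and 5' actin probe sets, a sign of RNA or labelling quality, was 2.35 to 2.99 log2 in the first set and 1.27 to 1.85 in the second. The same gap for GAPDH did not part the sets, at -0.275 to -0.108 log2 in the first and -0.211 to -0.102 in the second. Each array correlated at 0.988 to 0.994 with the mean of the others. The label of heart tissue was borne out by cardiomyocyte markers: the mean of the 13 measured of 15 listed was 13.08 to 13.34 log2 in exercised animals and 13.07 to 13.39 in sedentary animals. The 3 measured skeletal muscle markers of 6 listed averaged 4.60 to 4.87 in exercised animals and 4.68 to 4.97 in sedentary animals.

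The main comparison asked whether complex I transcripts differ between exercised and sedentary hearts. Of the 36 genes only NDUFA1 passed on its brightest probe set, at 1.18-fold higher in exercised animals, and 0 fell. Most members lay slightly higher in exercised animals, 29 of 36, and none of their fitted differences exceeded 0.24 log2 in size. Members lower in exercised animals were NDUFA2, NDUFA10, NDUFA12, NDUFB1, NDUFB9, NDUFS7 and NDUFV3, without passing. Here a gene passes at an adjusted p under 0.05 in limma's linear model with Benjamini-Hochberg adjustment over all 23935 probe sets. Over the brightest probe sets of all 6765 named genes, 10.0% passed, 5.11% higher and 4.91% lower in exercised animals. Among probe sets above the 90th percentile of level, where 33 of the 36 members lay, 3.17% passed and 1.55% were higher. A single call among 36 members is near the shares for bright probe sets.

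The median difference over the members was 0.07 log2, beside 0.01 over all named genes and 0.02 over probe sets above the 90th percentile of level. A positive sign was found in 80.6% of members, 53.1% of all named genes and 55.8% of those bright probe sets. The members come from the same 16 arrays and are not independent of each other, so these are descriptions without a test. On arrays with low poly-A signal alone the median was 0.01, beside 0.005 over all named genes, with 21 of 36 members higher. On arrays with high poly-A signal alone it was 0.09, beside 0.02 over all named genes, with 30 of 36 higher. The fit to the low arrays had no term for sex and no exercised females. Training and sex are therefore partly mixed there, and these fits are not alike. In whole tissue, a change in the share of muscle cells and a change in RNA per cell cannot be told apart.

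**Figure D1:**
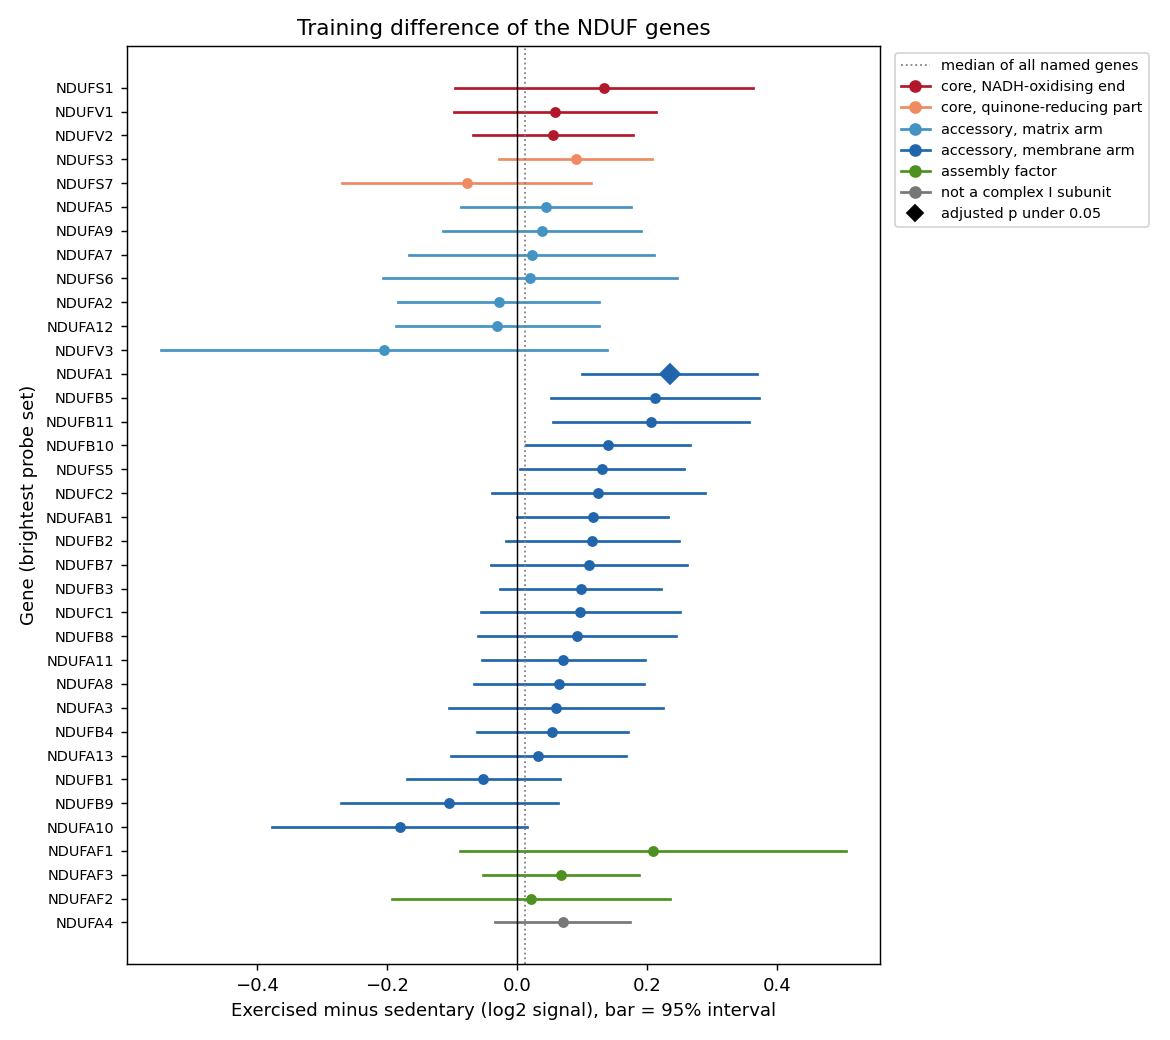
Difference between exercised and sedentary animals (log2 signal, x axis) for the brightest probe set of each of 36 NDUF genes (y axis), grouped by role, with 95% intervals from limma. Most points lie right of 0 but only NDUFA1, drawn as a diamond, passed, and 34 of the 36 intervals lie within 0.5 log2 of 0.

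The core subunits of the NADH-oxidising end did not pass. NDUFV1, which binds NADH and the flavin, averaged 11.41 ± 0.17 log2 in exercised animals and 11.35 ± 0.16 in sedentary animals (SD, n = 8 each), a difference of 0.06 with a 95% interval of -0.10 to 0.21. NDUFV2, an iron-sulphur subunit beside it, differed by 0.06 (interval -0.07 to 0.18) on its brightest probe set. NDUFS1, the largest iron-sulphur subunit, differed by 0.13 with a wider interval of -0.10 to 0.36. These intervals do not reach 0.5 log2 in either direction.

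In the quinone-reducing part, NDUFS3 and NDUFS7 were measured. NDUFS7, which holds the last iron-sulphur cluster before ubiquinone, averaged 12.08 ± 0.19 in exercised animals and 12.16 ± 0.20 in sedentary animals (SD, n = 8 each), a difference of -0.08 (interval -0.27 to 0.11, limma adjusted p = 0.65). NDUFS3 differed by 0.09 on its brightest probe set (interval -0.03 to 0.21, limma adjusted p = 0.324). Its values there were 11.81, 11.76, 12.01, 11.79, 12.00, 11.97, 11.79 and 11.90 log2 in exercised animals 1 to 8, against 11.68, 11.72, 11.87, 11.62, 11.95, 11.84, 11.80 and 11.82 in sedentary animals 1 to 8. The groups overlap widely on that probe set.

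The median over the 7 measured accessory subunits of the matrix arm was 0.02 log2, with 4 positive and 3 negative, and 0 passed in limma, also at an unadjusted p under 0.05. NDUFA5, NDUFA7 and NDUFA9 differed by 0.05, 0.02 and 0.04, and NDUFA2 and NDUFA12 by -0.03 each. NDUFV3, a small subunit at the NADH-oxidising end, had the widest spread between animals of any member, an SD within groups of 0.40 log2. This spread followed the array sets, which did not overlap. NDUFV3 read 7.57 to 7.84 log2 on arrays with low and 6.68 to 7.25 on arrays with high poly-A signal. It averaged 7.09 ± 0.41 in exercised animals and 7.29 ± 0.40 in sedentary animals (SD, n = 8 each), a difference of -0.20 whose interval ran from -0.55 to 0.14. Over the members the median SD within groups was 0.13 log2.

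The 20 measured accessory subunits of the membrane arm had a median difference of 0.10 log2, and 17 were positive. All 6 members with an unadjusted p under 0.05 on the brightest probe set were of this arm, and all 6 were higher in exercised animals. This is 16.7% of the members, beside 22.9% of all named genes at that threshold (12.3% higher in exercised animals) and 12.6% of probe sets above the 90th percentile of level (7.35% higher). The 6 were NDUFA1, NDUFB5, NDUFB11, NDUFB10, NDUFS5 and NDUFAB1. Whether the membrane arm differed from the matrix arm was not tested.

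NDUFA1 codes for a small subunit with a single membrane span, and is needed for assembly of the complex. Its brightest probe set read 12.90, 12.62, 12.82, 12.79, 12.93, 12.74, 12.57 and 12.77 log2 in exercised animals 1 to 8. In sedentary animals 1 to 8 it read 12.59, 12.49, 12.60, 12.46, 12.62, 12.50, 12.44 and 12.56. All 8 exercised animals lay above the sedentary mean and 7 lay above every sedentary animal. Exercised 7 alone fell inside the sedentary range. The difference was 0.24 log2 (SE 0.0632, limma adjusted p = 0.0224), with 0.25 on arrays with high and 0.17 on arrays with low poly-A signal as plain differences of group means. It passed without each single animal in turn, with limma adjusted p from 0.00959 to 0.04999. When only probe sets above the 40th percentile of level were tested it did not pass (limma adjusted p = 0.062), nor above the 60th percentile (limma adjusted p = 0.12).

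NDUFB5 and NDUFB11, both single-span subunits of the membrane arm, came next. NDUFB5 read 12.58, 12.47, 12.79, 12.68, 12.71, 12.58, 12.46 and 12.46 log2 in exercised animals 1 to 8, against 12.44, 12.34, 12.46, 12.34, 12.67, 12.26, 12.23 and 12.28 in sedentary animals 1 to 8. All 8 exercised animals lay above the sedentary mean, but sedentary 5 lay above 5 of them. Its difference of 0.21 log2 did not pass (SE 0.0751, limma adjusted p = 0.0749), though it did with the poly-A array set as a block (0.18, limma adjusted p = 0.0317), with the replicate number as a block (limma adjusted p = 0.0469) and without sedentary 5 (0.26, limma adjusted p = 0.0255).

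NDUFB11, X-linked in humans as NDUFA1 is, read 12.07, 11.78, 12.11, 12.13, 12.05, 12.11, 12.04 and 12.11 log2 in exercised animals 1 to 8, against 11.54, 11.78, 11.93, 11.58, 11.93, 11.99, 11.99 and 11.98 in sedentary animals 1 to 8. Exercised 2 lay apart from the other 7 exercised animals, which were all above every sedentary animal. The difference of 0.21 log2 did not pass (SE 0.0711, limma adjusted p = 0.0675), but passed without exercised 2 (0.25, limma adjusted p = 0.027), without sedentary 8 (0.25, limma adjusted p = 0.0195), with array weights (0.23, limma adjusted p = 0.0319) and with the poly-A array set as a block (0.22, limma adjusted p = 0.0353). The array sets taken apart gave 0.29 on arrays with high and 0.08 on arrays with low poly-A signal.

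NDUFB10, a subunit with paired cysteine motifs on the outer side of the membrane arm, read 12.11, 11.83, 12.24, 12.08, 12.03, 12.15, 12.14 and 12.16 log2 in exercised animals 1 to 8, against 11.85, 11.83, 12.01, 11.80, 12.12, 12.00, 11.99 and 11.99 in sedentary animals 1 to 8. Exercised 2 was again the lowest of its group, and 4 of the 8 exercised animals lay above every sedentary animal. The difference of 0.14 log2 did not pass (SE 0.0595, limma adjusted p = 0.138). NDUFS5, on the same face of the membrane, differed by 0.13 (limma adjusted p = 0.168). NDUFAB1, the mitochondrial acyl carrier protein, found in both arms and counted here with the membrane arm, differed by 0.12 (limma adjusted p = 0.181). At the other end NDUFA10, a matrix-facing subunit related to nucleoside kinases, averaged 10.16 ± 0.21 in exercised animals and 10.34 ± 0.20 in sedentary animals (SD, n = 8 each), and its difference of -0.18 did not pass (limma adjusted p = 0.229).

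The 3 assembly factors did not pass. NDUFAF1, which works on early membrane-arm intermediates, averaged 8.26 ± 0.23 log2 in exercised animals and 8.05 ± 0.34 in sedentary animals (SD, n = 8 each), a difference of 0.21 (interval -0.09 to 0.51). Its second probe set differed by 0.12. NDUFAF2, a late-acting factor related in sequence to NDUFA12, differed by 0.02 and NDUFAF3 by 0.07. NDUFA4 differed by 0.07 (interval -0.03 to 0.17) and had the narrowest spread within groups of the members, 0.06 log2.

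Of the 36 genes, 7 had several probe sets, 16 in all. NDUFA1 passed on both of its probe sets, in opposite directions, while NDUFS3 and NDUFS6 each passed on 1 probe set. Over all 45 probe sets 4 passed, 3 higher and 1 lower in exercised animals, where 13.4% of all probe sets passed, 6.48% higher and 6.88% lower. Of the 9 dimmer probe sets 3 passed, 2 higher and 1 lower, beside 14.3% of the 3304 dimmer probe sets of all named genes, 6.42% higher and 7.93% lower. In each of the 3 genes with a called dimmer probe set, the difference on the brightest probe set had another size or sign.

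The dimmer NDUFA1 probe set, whose identifier carries the suffix for probes that can be shared by several transcripts, moved opposite to the brightest. It read 6.26, 6.10, 6.28, 6.23, 6.14, 6.25, 5.97 and 6.20 log2 in exercised animals 1 to 8, against 6.44, 6.60, 6.62, 6.67, 6.77, 6.69, 6.57 and 6.63 in sedentary animals 1 to 8. All 8 exercised animals lay below every sedentary animal, the one NDUF probe set of 45 whose groups did not overlap, where 3.12% of all probe sets did not. On the brightest probe sets 0 of 36 members had groups apart, beside 2.23% of all named genes. It was lower by 0.44 log2 on average (log2 -0.44, SE 0.0607, limma adjusted p = 0.00028), with -0.41 on arrays with high and -0.55 on arrays with low poly-A signal. The gap between the brightest and the dimmer probe set was 6.59 ± 0.10 log2 in exercised animals and 5.91 ± 0.12 in sedentary animals (SD, n = 8 each). That gap was larger in every exercised animal than in any sedentary animal (difference 0.68, two-sided p = 0.000155 by exact permutation, which can give no smaller value, and 0.0014 after Benjamini-Hochberg adjustment over 9 pairs of probe sets). Both probe sets had already passed in opposite directions in the same animals, so the test of the gap adds no separate support. A direction for NDUFA1 as a gene is therefore not given by these probe sets together.

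**Figure D2:**
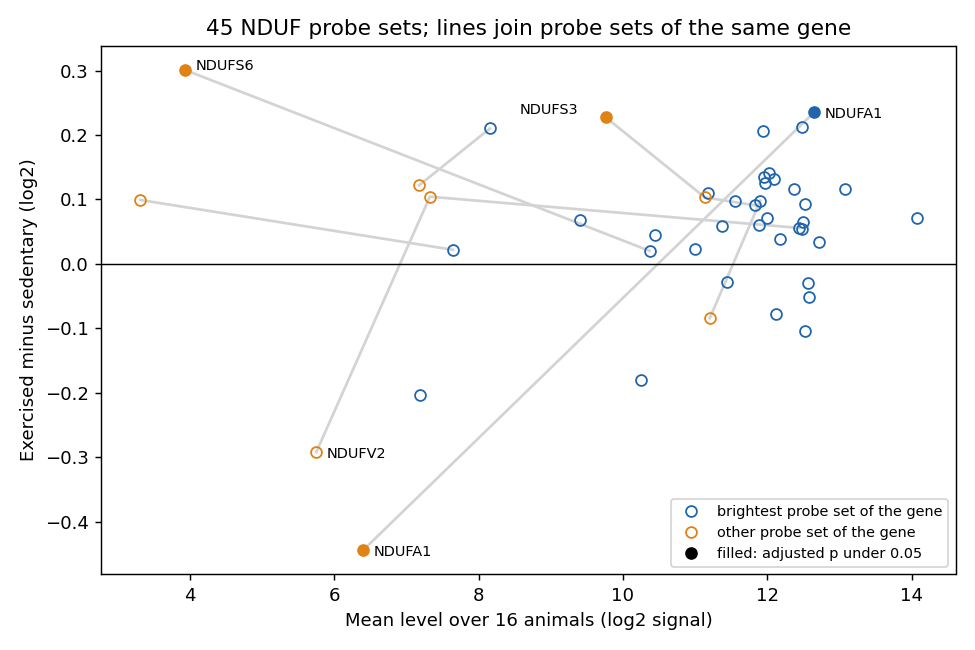
Training difference (exercised minus sedentary, log2, y axis) against the mean signal over 16 animals (log2, x axis) for 45 NDUF probe sets, with lines joining probe sets of the same gene and filled points for those that passed. The NDUFA1 line crosses 0, between 0.24 and -0.44, and the called NDUFS6 and NDUFS3 probe sets are not the brightest of their genes. Signals of different probe sets do not compare transcript amounts.

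NDUFS6, a zinc-binding subunit of the matrix arm, passed on a probe set near the bottom of the scale, at the 14.4th percentile of level, which is not shown to be above background. It read 3.80, 4.08, 4.10, 4.12, 3.94, 4.34, 4.12 and 4.17 log2 in exercised animals 1 to 8, against 3.73, 3.77, 3.85, 3.85, 3.80, 3.71, 3.70 and 3.85 in sedentary animals 1 to 8. All but exercised 1 lay above every sedentary animal. The difference was 0.30 log2 (SE 0.0697, limma adjusted p = 0.00989), and on arrays with high poly-A signal alone it was 0.25 and did not pass (limma adjusted p = 0.122). The brightest NDUFS6 probe set averaged 10.38 ± 0.25 in exercised animals and 10.36 ± 0.17 in sedentary animals (SD, n = 8 each), a difference of 0.02. The gap between the pair differed by -0.28 between the groups (exact permutation p = 0.00404, adjusted 0.0108 over 9 pairs), larger in sedentary animals. The dimmer probe set had already passed in the same animals, so the test of the gap adds no separate support.

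The called NDUFS3 probe set moved the same way as the 2 brighter ones but further. It read 9.86, 9.78, 10.08, 9.81, 9.89, 9.96, 9.92 and 9.72 log2 in exercised animals 1 to 8, against 9.60, 9.58, 9.71, 9.50, 9.82, 9.76, 9.59 and 9.64 in sedentary animals 1 to 8. All 8 exercised animals lay above the sedentary mean, and 5 above every sedentary animal. The difference was 0.23 log2 (SE 0.0609, limma adjusted p = 0.0221), against 0.09 and 0.10 on the brighter probe sets. Restricted to probe sets above the 40th percentile of level it did not pass (limma adjusted p = 0.0629).

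**Figure D3:**
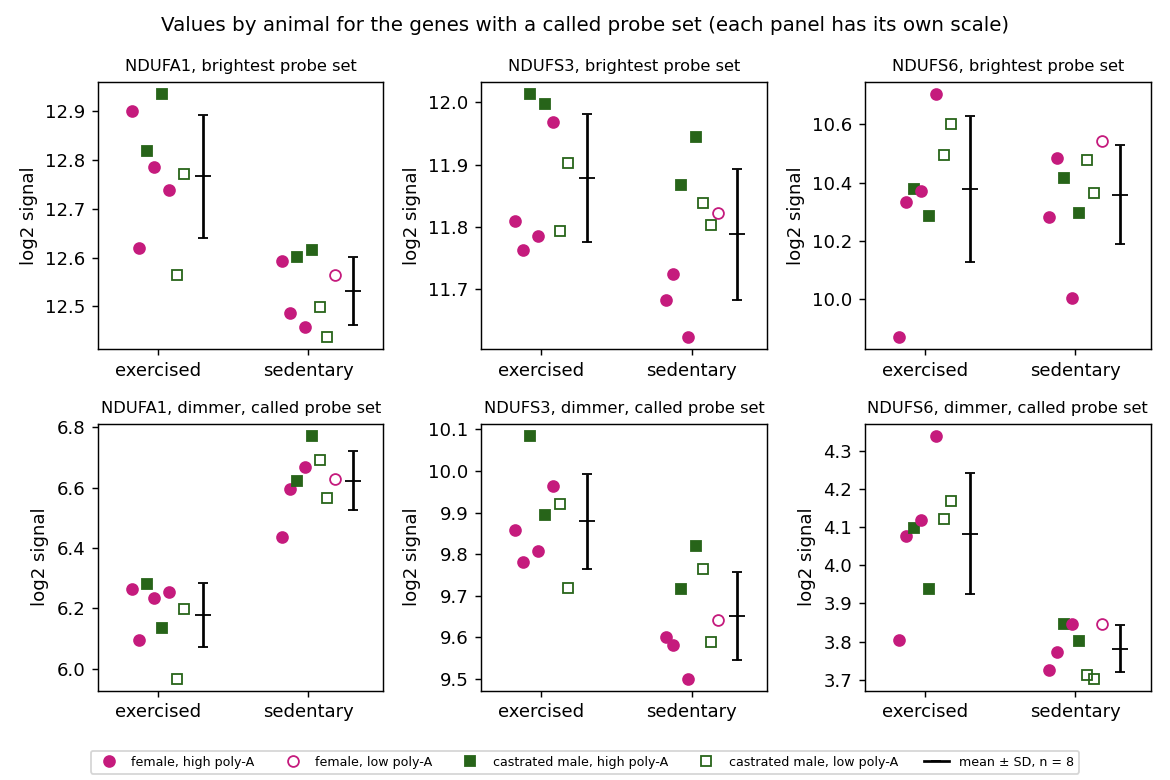
Log2 signal (y axis) in each exercised and sedentary animal for NDUFA1, NDUFS3 and NDUFS6, with the brightest probe set in the upper row and the called dimmer one in the lower row; marks show sex and array set, and bars the mean ± SD (n = 8). The NDUFA1 probe sets move opposite ways, with all 8 exercised animals below all 8 sedentary animals in the lower panel.

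Pairs of probe sets also parted without a call. NDUFB3, a membrane-arm subunit, differed by 0.10 on its brightest probe set and by -0.08 on the other, and neither passed. The gap between them was 0.79 ± 0.12 log2 in exercised animals and 0.61 ± 0.04 in sedentary animals (SD, n = 8 each, exact permutation p = 0.000622, adjusted 0.0028 over 9 pairs). NDUFV2 differed by 0.06 on its brightest probe set, 0.10 on a second and -0.29 on the dimmest (limma adjusted p = 0.108 for the dimmest). That dimmest probe set passed with the poly-A array set as a block (-0.33, limma adjusted p = 0.0313) and without sedentary 7 (-0.36, limma adjusted p = 0.0348). In all, 5 of the 9 pairs passed an adjusted exact permutation p of 0.05. They included NDUFS6, whose dimmer signal is not shown to be above background. By the same test NDUFS3 was at 0.0108 and NDUFV2 at 0.0283, beside those above. The dimmer NDUFS3 probe set of that pair had already passed in the same animals, so its gap adds no separate support. The pairs of NDUFAF1, NDUFAF2 and the remaining ones of NDUFS3 and NDUFV2 did not pass, with adjusted p from 0.519 to 0.898 by the exact permutation test. Pairs of other genes were not tested, so no share over all named genes can be set beside the count.

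The level of the genes as a whole was described in each animal as the mean over the 36 genes of the deviation from the gene's mean. Exercised animals ran from -0.14 to 0.12 log2 with a median of 0.05, and sedentary animals from -0.20 to 0.07 with a median of 0.000454. The groups overlap over most of this range. Exercised 2, at -0.14, had 4 of 36 genes above their mean, and sedentary 4, at -0.20, had 1 of 36. Exercised 3, at 0.12, and exercised 6, at 0.10, had 31 of 36 above. Without exercised 2 the median training difference over the genes was 0.09 with 31 of 36 higher, and without sedentary 4 it was 0.05 with 27 of 36 higher.

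**Figure D4:**
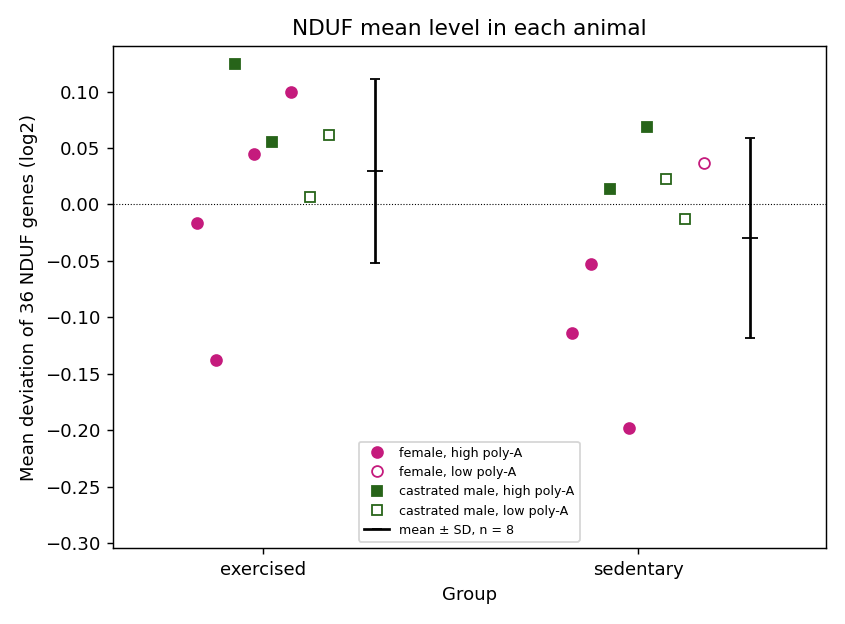
Mean deviation of 36 NDUF genes (log2, y axis) in each exercised and sedentary animal, with sex and array set marked and the mean ± SD (n = 8) beside the points. The groups overlap, and the 3 lowest animals, at -0.20, -0.14 and -0.11, are females on arrays with high poly-A signal.

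The next comparison asked whether training acted alike in the sexes. In females 29 of 36 members were higher in exercised animals, with a median of 0.11 log2 beside 0.02 over all named genes. In castrated males 25 of 36 were, with a median of 0.04 beside 0.01. Both sexes were positive in 23 members and both negative in 5. None of the 36 passed in either sex on the brightest probe set in limma, where 2.60% of all named genes did in females and 2.57% in males, and at an unadjusted p under 0.05 there were 2 in females and 1 in castrated males, beside 15.7% and 13.3% of all named genes. NDUFA1 differed by 0.24 in females and 0.23 in castrated males on its brightest probe set. NDUFB11 differed by 0.30 in females (limma adjusted p = 0.114) and 0.11 in castrated males (limma adjusted p = 0.656).

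Over all 45 probe sets, the dimmer NDUFA1 probe set was the one call in each sex, where 3.72% of all probe sets passed in females and 3.77% in castrated males, of which 1.73% and 2.14% were lower in exercised animals. It was lower by 0.37 log2 on average in females (log2 -0.37, limma adjusted p = 0.0261) and by 0.52 in castrated males (log2 -0.52, limma adjusted p = 0.00496). The female call ended without each of exercised 1, 2 and 4 and sedentary 2, 4 and 8, at -0.39 to -0.33 with adjusted p from 0.0527 to 0.0749 by limma. It also ended with the replicate number as a block (-0.37, limma adjusted p = 0.0991), and on arrays with high poly-A signal alone neither sex passed (limma adjusted p = 0.0532 in females and 0.0835 in castrated males). The difference between the sexes in the training effect passed for 0 of 45 probe sets in limma, with 1 at an unadjusted p under 0.05, the second NDUFV2 probe set at -0.52. It also passed for 0% of all 23935 probe sets, 621 of which had an unadjusted p under 0.05.

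**Figure D5:**
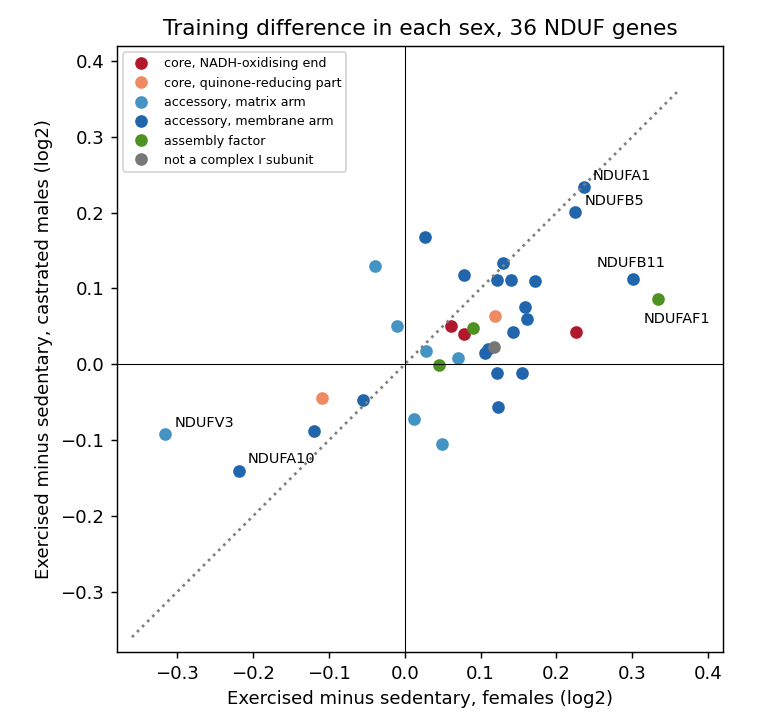
Training difference (exercised minus sedentary, log2) in females (x axis) and castrated males (y axis) for the brightest probe set of 36 NDUF genes, coloured by role; the dotted line marks equal differences. Points gather in the upper right, with NDUFA1 at 0.24 and 0.23, and 0 genes passed a test of the difference between the sexes.

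Between the sexes, averaged over training, 32 of 36 members were lower in females than in castrated males, with a median of -0.08 log2, beside -0.01 over all named genes, of which 54.1% were lower, and 0.00154 over probe sets above the 90th percentile of level. In limma 0 of 36 passed, where 0.0739% of named genes did, and 0 of 45 probe sets, where 0.0919% of all probe sets did. At an unadjusted p under 0.05, which 10.4% of all named genes reached, there were 7 members, all lower in females: NDUFV1 (-0.19), NDUFV2 (-0.13), NDUFV3 (-0.42), NDUFA12 (-0.18), NDUFAB1 (-0.13), NDUFB10 (-0.13) and NDUFS3 (-0.12), with an adjusted p = 0.537 for each in limma. NDUFV3 read higher on every array with low poly-A signal, a set with 1 female, so its difference is partly mixed with the array set. With the poly-A array set as a block the median was -0.09 with 33 of 36 lower and 3 at an unadjusted p under 0.05. On arrays with high poly-A signal alone it was -0.13 with 35 of 36 lower and 9 at that threshold, and 0 passed in either setting. The mean level ran from -0.20 to 0.10 in the 8 females and from -0.01 to 0.12 in the 8 castrated males. The X-linked genes of human complex I, NDUFA1 and NDUFB11, differed between the sexes by -0.01 and -0.15 on their brightest probe sets and did not pass.

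Other genes of the complex I pathway were taken from a fixed list. Among assembly factors without the NDUF prefix, 11 of 17 were measured, with a median of 0.05 log2, 1 higher, 0 lower and 10 not passing. ACAD9, an acyl-CoA dehydrogenase family member that works with NDUFAF1 in assembly, read 7.56, 7.88, 7.65, 7.49, 7.68, 7.81, 7.89 and 7.66 log2 in exercised animals 1 to 8, against 7.34, 7.30, 7.08, 7.22, 7.45, 7.55, 7.73 and 7.53 in sedentary animals 1 to 8. All 8 exercised animals lay above the sedentary mean, and the ranges overlapped. Sedentary 6 to 8, on arrays with low poly-A signal, read 7.53 to 7.73, above the 7.08 to 7.45 of sedentary 1 to 5. Among exercised animals the array sets overlapped. The difference of 0.30 log2 passed narrowly (SE 0.092, limma adjusted p = 0.0395). It passed in 5 of the 16 fits that left out 1 animal, and the difference ran from 0.24 to 0.35 in these with adjusted p from 0.02004 to 0.0785 in limma. The fits without exercised 2, 3, 5, 6, 7 or 8 or without sedentary 1, 2, 3, 4 or 5 did not pass. ECSIT, the partner of ACAD9 and NDUFAF1, differed by 0.06 and FOXRED1 by -0.14, and neither passed.

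Among regulators of respiratory genes, 5 of 11 were measured, with 1 higher, 0 lower and a median of -0.06 log2. PPRC1, a coactivator related to PGC-1 alpha, read 6.92, 6.97, 6.91, 6.82, 7.02, 6.66, 6.53 and 6.79 log2 in exercised animals 1 to 8, against 6.41, 6.42, 6.43, 6.40, 6.48, 6.58, 6.46 and 6.33 in sedentary animals 1 to 8. Only exercised 7 fell inside the sedentary range. Its difference was 0.39 log2 (SE 0.0703, limma adjusted p = 0.00196). TFAM, which packages and transcribes mitochondrial DNA, differed by -0.07 and TFB1M by -0.06, and PPARGC1A by -0.21 (limma adjusted p = 0.355), none passing. PPARGC1A passed without sedentary 5 (-0.33, limma adjusted p = 0.0283). Markers of mitochondrial content did not pass in limma, 0 of 6 measured of 7 listed and 0 at an unadjusted p under 0.05, with a median of 0.02. Citrate synthase, CS, differed by -0.01 and the outer membrane channel gene VDAC2 by 0.09.

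Markers of other cell types were set beside these values. None of the 13 cardiomyocyte markers passed in limma (median 0.01, with RYR2 at an unadjusted p under 0.05 and 0.36). TNNI1 had the largest difference of that list, -0.83 (limma adjusted p = 0.265), with an SD of 1.26 log2 in sedentary animals. Nor did any of the 8 endothelial, 6 fibroblast, 5 smooth muscle and pericyte, 2 red cell or 3 adipocyte markers pass. Of these, the fibroblast collagen gene COL3A1 (-0.25) had an unadjusted p under 0.05. Of 8 immune markers the T cell gene CD3G and the B cell gene CD79B rose, by 0.56 and 0.26 log2 (limma adjusted p = 0.0155 and 0.0126). Their mean levels were low, 5.38 and 4.00 log2, and the CD79B signal is not shown to be above background. Others of that list at an unadjusted p under 0.05 were the macrophage gene AIF1 at 0.43, the T cell gene CD4 at -0.37 and the monocyte gene CD14 at -0.29, none of which passed after adjustment. The T cell gene CD3E differed by 0.18 without passing (limma adjusted p = 0.645). Over the list 5 markers were higher and 3 lower in exercised animals. The mean of the immune list ran from 6.11 to 6.64 in exercised animals and from 5.84 to 6.62 in sedentary animals. Its part in the differences of the NDUF genes was not tested.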

How the data were processed

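The authors deposited log2 signals, 1 value for each probe set and animal, from biotin-labelled RNA per the labels. Summarisation and normalization are not given in the sources used here. Values ran from 2.87 to 14.86 with the same minimum and maximum on all 16 arrays, and nothing further was applied to them. Precision is limited by the number of arrays.

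Of 24123 probe sets, 188 controls were left out. The platform annotation, which may be dated, gave 1 symbol to 10069 probe sets, several to 198 and none to 13668. All 36 members matched RefSeq (Sscrofa11.1) by Entrez identifier under the same symbol. No coordinates or sequences are given.

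Means for each combination of training and sex were fitted to all arrays with limma 3.58.1 in R 4.3.3 (12 residual and 3.50 prior degrees of freedom). Tests were two-sided, and adjusted p values for genes are limma's over all tested probe sets. In a simulation with 200 of 23935 probe sets changed, 96% of changes of 1 log2 and 65% of those of 0.5 log2 were recovered. Of the calls, 6.4% were false. Smaller changes, such as those of the NDUF genes, were not simulated, so their recovery is not given. Probe sets of a gene were compared by exact permutation over 12870 assignments of animals, a test added after the values were seen. Named were members with a call, opposite probe sets or the 6 smallest p values, core subunits, and the 3 brightest and 3 dimmest members. NDUFA13 was among the brightest and differed by 0.03. Other members were named to describe a role or a sign. Members, lists and tests were chosen with earlier results of these data known. Figures used matplotlib 3.10.9.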

Additional observations from a re-analysis of the deposited data

Results flagged for a closer look

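Among 23 named NDUF probe sets and the mean level, tested for a lone animal in each group, 3 of 48 groups held one whose gap to the nearest animal was large against the range of the group. Chance alone gives about 1 in 20. NDUFB11 in exercised 2 was at 11.78 log2, with the other 7 exercised animals from 12.04 to 12.13. NDUFV2 in exercised 2 was at 12.25 on its brightest probe set, with the others from 12.45 to 12.61. NDUFS5 in sedentary 5 was at 12.15, with the other sedentary animals from 11.96 to 12.05.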

How the results depend on the processing

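The samples share only a replicate number: same-numbered animals had correlations of deviations from -0.03 to 0.39, and 1 of 8 exercised animals correlated best with its own number. With the replicate number as a block 3528 probe sets passed against 3197, 2 NDUF genes were higher against 1, and 0 NDUF probe sets passed in females. Testing only probe sets above the 40th percentile gave 631 calls in all, with 0 NDUF genes and 0 NDUF probe sets higher, and 0 in females. Above the 60th percentile there were 77 calls, with 0 NDUF genes, 0 NDUF probe sets higher or lower, and 0 in females or castrated males. The dimmer NDUFA1 probe set, at the 52.5th percentile, was itself left out above the 60th. The called NDUFS6 probe set, at the 14.4th percentile, was left out of both settings. Both settings test fewer probe sets, 14361 and 9574 of the 23935. In each a smaller share of the tested probe sets passed than the 13.4% of all probe sets. NDUF genes higher numbered 2 with array weights, 3 with the poly-A array set as a block, 3 at an adjusted p of 0.1, and 0 when the probe sets of each gene were averaged. NDUF probe sets numbered 5 higher and 2 lower with the poly-A block, and 5 higher at an adjusted p of 0.1. Leaving out 1 animal, all calls ran from 2513 to 3108, NDUF genes higher from 1 to 2, NDUF probe sets higher from 3 to 4 and lower from 1 to 2, those in females from 0 to 1, and the NDUF median from 0.05 to 0.09. NDUF calls lower on the brightest probe set, the calls between the sexes and those of the training by sex difference stayed at 0 in the settings run. Reversals were of differences near 0 that never passed: leaving out 1 animal gave -0.0335 to 0.0722 for NDUFAF2, negative without exercised 3, 4 or 6 or sedentary 3 or 4, and -0.0436 to 0.0952 for NDUFS6 on its brightest probe set, negative without exercised 6, exercised 8 or sedentary 4. The cause was not tested. Quantile normalization, median centring, a trended and robust eBayes and no sex term kept every NDUF count within 1.5 times. The deposited arrays already had the same minimum and maximum, and medians from 6.236 to 6.242 log2. Quantile normalization and median centring could therefore change little and are weak checks.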

Other observations

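Genes of the other respiratory complexes were read the same way on their brightest probe sets. They were taken by the symbols SDHA to SDHD and CYC1 and the prefixes UQCR, COX4 to COX8 and ATP5. Assembly factors with other symbols were not taken, while the NDUF genes include 3 assembly factors. Of 27, 0 passed in limma, 3 had an unadjusted p under 0.05, and 16 were higher in exercised animals, with a median of 0.04 log2 beside 0.07 for the NDUF genes. Their mean deviation averaged 0.02 ± 0.06 log2 in exercised animals and -0.02 ± 0.06 in sedentary animals (SD, n = 8 each), and whether it differed from that of the NDUF genes was not tested. The mitochondrial protease LONP1, the chaperone TRAP1 and the transhydrogenase NNT differed by 0.05, 0.16 and 0.08 log2 without passing.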
